A study of Mus musculus with 12 samples.

Results

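The genes described here are 30 genes of cholesterol synthesis and transport, measured by RNA sequencing of the mouse hypothalamus. They were listed by function, with earlier results of these data known, and matched by gene symbol to 30 of the 78334 gene IDs in the count table. The list holds 17 enzymes of the synthesis pathway, 5 regulators of the SREBP pathway, the sterol carrier gene Stard4 and the thiolase gene Acat2, 5 genes of cholesterol efflux and its LXR receptors, and Cyp46a1. The mice were C57BL/6 males, 8 weeks old at the start, with 1 library per sample in 12 samples. Control mice (C, n = 3) were kept on standard chow and gavaged with vehicle. Mice with obesity (Ob, n = 3) were fed a high-fat diet (HFD) with 60% of its energy as fat and gavaged with vehicle. The treated groups had the same HFD and daily gavage, with resveratrol, a plant polyphenol, at 2.25 mg/kg (Ob + RSV, n = 3), aged garlic extract (Ob + EAE, n = 2) at 200 mg/kg or curcumin (Ob + CUR, n = 1) at 50 mg/kg. The labels give the gavage as 28 days from 16 weeks of age, after 8 weeks of HFD, and do not state whether the HFD went on during it. The paper on these mice places resveratrol within the last part of the HFD period, and does not describe the EAE and CUR groups. For Ob + EAE nothing in the sources used here says that both samples came from separate animals, so the spread between them may be technical. The p-values for that group come from a fit of all 12 libraries that shares the estimate of the spread. They rest mostly on the spread within C, Ob and Ob + RSV and do not measure the spread among mice given EAE.

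The adult brain makes its own cholesterol, because lipoproteins of the blood do not cross the blood–brain barrier. Astrocytes and oligodendrocytes make most of it, and astrocytes pass it to neurons on particles that carry apolipoprotein E. When sterols are scarce, SCAP escorts the SREBP transcription factors out of the endoplasmic reticulum and they switch on the synthesis genes, whereas INSIG proteins hold them back. When sterols are plentiful, oxysterols activate the LXR receptors, which switch on the efflux genes, and neurons turn surplus cholesterol into an oxysterol that can leave the brain.

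All 30 genes passed the filter on low counts, 10 reads in total. The smallest number of reads of any of them in a library was 66, for Nr1h3, and the largest was 93600, for Apoe. Levels are given as CPM, which are read counts scaled to a common library size, after TMM scaling, which adjusts each library total for differences in composition. Levels of different genes are compared only as CPM per kb of exon. For 21 of the 30 genes the highest of the 12 libraries was less than 2 times the lowest. The coefficient of variation over the 12 libraries ran from 12.1% for Abcg1 to 44.5% for Apoe, with a median of 17.3%.

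Some libraries stood apart from the rest. Counted reads ran from 15655156 to 26284661 per library, and C replicate 2, Ob replicate 1 and Ob + RSV replicate 2 had reads in 24450 to 26123 genes, against 28632 to 38081 in the other 9. Hypothalamic markers were present in every library except Agrp, which was at 0 in 2 libraries. The summed level of the 11 markers was 1038 to 3250 CPM in 11 libraries but 322 in Ob + CUR. The list did not move as a block there. Oxt, Avp and Hcrt were at their lowest of the 12 libraries, at 3.96, 8.26 and 2.02 CPM, as were Trh and Pmch. Nkx2-1 and Sim1 were at their highest, at 85.5 and 23.8 CPM. Ob + RSV replicate 3 also stood apart within the list. Its Pomc was 2.485 CPM, against 28.8 to 192 in the other libraries, and its Nkx2-1 and Otp, at 16.5 and 39.9 CPM, were the lowest of the 12. Its Pmch, at 452 CPM, was not low. Markers of the pituitary, a neighbouring gland, summed to at most 15.8 CPM, and 4 of the 5 were at 0 in at least 1 library. The 9 astrocyte markers summed to 1274 CPM in C replicate 3 and 2019 in Ob replicate 3, against 2785 to 4141 in the other libraries. The 5 endothelial markers summed to 219 and 221 CPM with EAE and 248 with CUR, against 77.4 to 142 elsewhere. Ly6c1 of that list did not share the rise, at 22.7 and 21.9 CPM with EAE and 26.3 with CUR, against 17.0 to 40.4 elsewhere. The 2 Ob + EAE libraries were closer to each other than any other pair of replicates. Closeness was taken as the squared difference of counts over that expected from counting noise, for genes with 40 or more reads in the pair. Its mean per gene was 7.30 for Ob + EAE and 24.8 to 84.0 for the other pairs. Whether both came from 1 animal was not tested. The labels give no batch, so library preparation and group cannot be told apart. In whole tissue, fewer cells of a type and less RNA per cell cannot be told apart either.

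Apoe, which encodes the lipid carrier secreted by astrocytes, was by far the most abundant of the 30 genes, with a median of 1065 CPM per kb of exon and a range of 473 to 2355. Cyp46a1, the neuronal hydroxylase that starts cholesterol turnover, came next with a median of 45.9 CPM per kb and a range of 35.2 to 55.6. Hmgcs1, which encodes HMG-CoA synthase, had 40.6, Srebf2, which encodes the SREBP that drives sterol synthesis, 34.4, and Pmvk, which encodes phosphomevalonate kinase, 30.9 CPM per kb. The ranges of these last 4 overlapped, so their order did not hold in every library. At the low end stood Nr1h3, which encodes LXR alpha, with a median of 1.65 CPM per kb, Hsd17b7, which encodes a keto-sterol reductase, with 2.48, and Abca1, the cholesterol efflux transporter, with 3.09. Nr1h2, which encodes LXR beta, had 18.6 CPM per kb, and its lowest library, 14.9, lay above the highest of Nr1h3, 3.32.

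**Figure D1:**
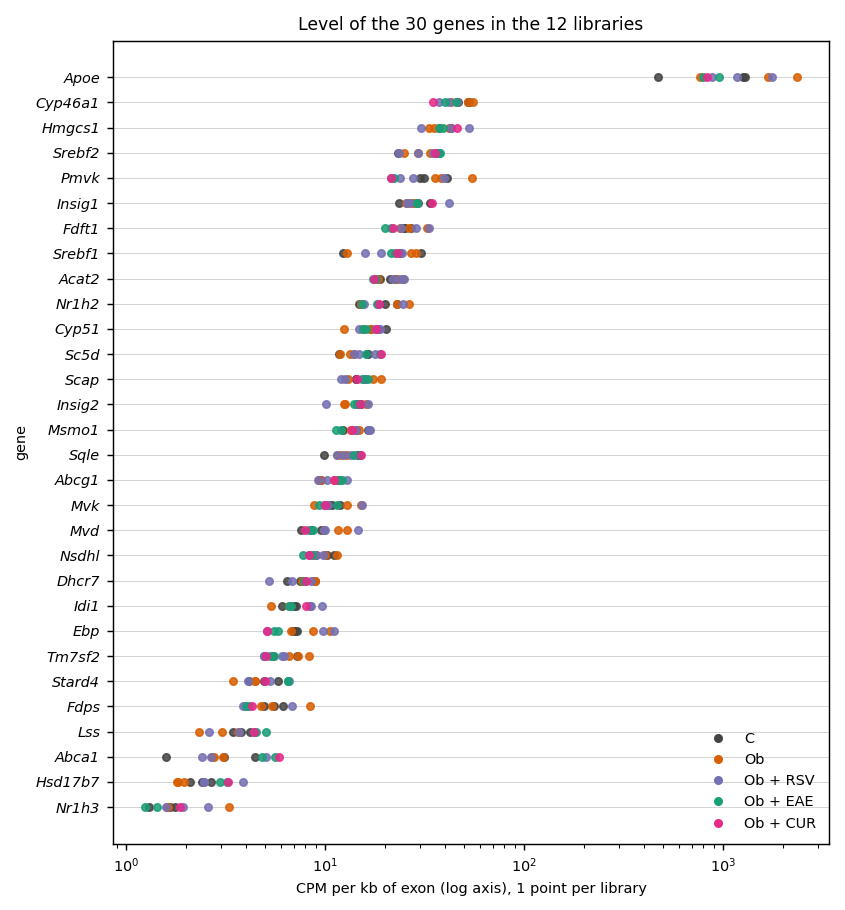
Levels of the 30 genes as CPM per kb of exon (log axis), with 1 point per library coloured by group and genes ordered by their median. Apoe stands at 473 to 2355 CPM per kb and Nr1h3 lowest at 1.26 to 3.32.

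The promoter of Hmgcs1 is shown because, of the promoters searched for the listed genes, it alone held the sterol response motif TCACNCCAC, to which SREBPs bind. The sequence is from RefSeq on GRCm38.p6, an earlier build than the GRCm39 named for the counts, and covers chr13:119690154-119690282 on the plus strand, with the motif in capitals at 137 to 129 bases before the annotated start.

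Hmgcs1: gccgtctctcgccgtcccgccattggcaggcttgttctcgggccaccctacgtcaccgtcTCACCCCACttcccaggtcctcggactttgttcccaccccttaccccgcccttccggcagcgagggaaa

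Windows of 250 bases before to 50 bases after the start were found for 25 of the 30 genes. The motif, searched on both strands, was present in 1.24% of the 32851 windows of all genes and in the windows of 1 of these 25 genes. The motif CCAAT, which is bound by NF-Y, a factor that works beside SREBPs, was present in 37.4% of all windows on either strand and in 20 of the 36 windows of the listed genes, which belong to 19 of the 25. A match is a description of the sequence, and no expression value was tied to it.

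In Ob vs. C, no gene of cholesterol synthesis or transport passed the test. The 17 enzymes from Hmgcs1 to Dhcr7 had a median log2FC of -0.0081, against -0.0034 over all genes tested. Apoe had the largest difference, with more transcript in 2 Ob libraries than in any C library, but its groups overlapped. The comparison asks whether the high-fat diet came with a different hypothalamic sterol program, and differences of more than 2-fold lay outside the 95% confidence interval of 28 of the 30 genes, all but Apoe and Nr1h3.

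Apoe stood at 2717, 2760 and 1010 CPM in C and at 5036, 3617 and 1645 in Ob. The lowest library of each group was the one with the lowest sum of astrocyte markers, C replicate 3 and Ob replicate 3, although Sox9 was not lowest there. The part of these markers in the result was not tested. The log2FC was 0.64 (SE 0.34, unadjusted p = 0.0689 from edgeR, adjusted p = 1). The SE and p depended on the model. With a replicate block in edgeR the SE was 0.19 (unadjusted p = 0.00093, adjusted p = 0.224). By DESeq2 the SE was 0.53 (unadjusted p = 0.209). It was 0.27 without Ob replicate 1 and 0.98 without Ob replicate 3, so single libraries moved it by more than 1.5 times. The group means were 2162 ± 998 CPM in C and 3433 ± 1703 in Ob (SD, n = 3 each).

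Mvd, which encodes the decarboxylase that makes isopentenyl diphosphate, had 15.9, 14.1 and 17.9 CPM in C and 24.1, 21.7 and 18.5 in Ob. Every Ob library was above every C library, and the log2FC was 0.41 (SE 0.25). Cyp51, which encodes lanosterol demethylase, had 81.5, 89.2 and 75.6 CPM in C and 54.9, 68.8 and 74.5 in Ob. Here every Ob library was lower, with a log2FC of -0.33 (SE 0.21). Lss, which encodes the cyclase that closes the sterol rings, had 40.8, 37.3 and 45.2 CPM in C and 25.2, 32.9 and 39.4 in Ob, and the groups overlapped at a log2FC of -0.36 (SE 0.24). For Pmvk the values were 51.8, 53.9 and 70.4 CPM in C and 94.1, 61.2 and 65.4 in Ob, a log2FC of 0.31 (SE 0.23). The groups overlapped, and Ob replicate 1 was the highest of all 12 libraries. Without Ob replicate 1 the log2FC was -0.21 for Cyp51, -0.20 for Lss and 0.096 for Pmvk. Without C replicate 2, Ob replicate 1 and Ob + RSV replicate 2, the libraries with few detected genes, it was 0.47 for Apoe, 0.24 for Mvd, -0.155 for Cyp51, -0.27 for Lss and 0.03 for Pmvk.

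By edgeR's quasi-likelihood test, 0 of the 30 genes were called (adjusted p under 0.05 with a log2FC of 1 or more in either direction), as were 0% of the 33534 genes tested. At an unadjusted p under 0.05, edgeR and DESeq2 each found 0 of the 30, against 1.35% of all genes higher and 1.4% lower in Ob by edgeR. The groups did not overlap for 1 of the 30 genes that was higher in Ob, Mvd, and for 2 that were lower, Cyp51 and Hsd17b7, against 4.09% and 3.56% of all genes. These counts lay near the background.

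**Figure D2:**
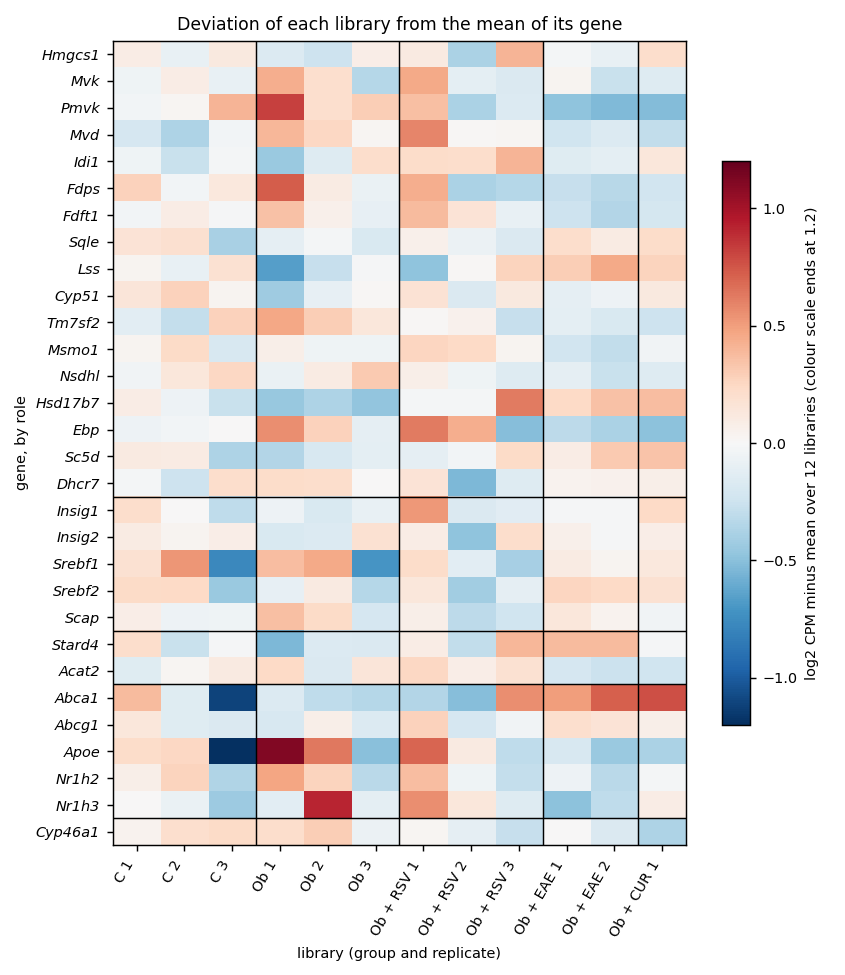
Deviation of each library (columns, by group) from the mean of its gene (rows, by role) in log2 CPM, with red above and blue below the mean. Apoe and Abca1 are lowest in C replicate 3, Pmvk and Apoe are highest in Ob replicate 1, and Pmvk is low in both Ob + EAE libraries and in Ob + CUR.

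The regulators and the efflux genes of C and Ob overlapped throughout. Srebf1, whose products include the SREBP of fatty acid synthesis, had 135, 171 and 69.2 CPM in C and 153, 162 and 72.5 in Ob. The lowest library in each group was again replicate 3, and the log2FC was 0.03 (SE 0.28). Srebf2 had 266 or 267 CPM in C replicates 1 and 2 but 167 in C replicate 3, and 213, 244 and 179 in Ob, a log2FC of -0.16 (SE 0.22). Scap, the SREBP escort, stayed between 89.9 and 143 CPM in all 12 libraries. Insig1, which retains SREBPs and is itself a target of them, ranged from 73.2 CPM in C replicate 3 to 130.1 in Ob + RSV replicate 1, and Insig2 from 35.4 to 57.2 CPM. Abcg1, a second efflux transporter, was the steadiest gene, between 67.5 and 94.0 CPM.

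Ob + RSV vs. Ob asks whether resveratrol changed the same genes in mice that had been fed the HFD. No gene passed adjustment. Hsd17b7 had a higher level with RSV in every library, and Pmvk had a lower mean, and both had an unadjusted p under 0.05 without passing adjustment. The median log2FC of the 17 enzymes was 0.046, against 0 over all genes tested. Because this comparison and Ob vs. C use the same Ob libraries, a high Ob library gives opposite signs in both.

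Hsd17b7 had 9.40, 9.97 and 9.25 CPM in Ob, the lowest of all the libraries, and 12.7, 12.7 and 19.8 in Ob + RSV. The groups did not overlap, and the log2FC was 0.66 (SE 0.29, unadjusted p = 0.0302 and adjusted p = 1 from edgeR). C had 13.7, 12.3 and 10.7 CPM, all above Ob and overlapping Ob + RSV. Without Ob + RSV replicate 3 the log2FC was 0.40, whereas it was 0.76 without C replicate 2, Ob replicate 1 and Ob + RSV replicate 2, the 3 libraries with few detected genes.

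Pmvk had 68.2, 40.7 and 47.4 CPM in Ob + RSV. The highest of these was above Ob replicates 2 and 3, and the log2FC was -0.50 (SE 0.23, unadjusted p = 0.0365 and adjusted p = 1 from edgeR). Without Ob replicate 1 the log2FC was -0.27, and without the 3 libraries with few detected genes it was -0.12.

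Idi1, which encodes the isomerase of isopentenyl diphosphate, had 18.9, 23.1 and 29.7 CPM in Ob and 29.9, 29.7 and 34.0 in Ob + RSV. The groups touched without overlapping, at a log2FC of 0.39 (SE 0.23). Tm7sf2, a sterol reductase gene, had 36.6, 32.5 and 29.0 CPM in Ob and 26.7, 27.5 and 21.9 in Ob + RSV, a log2FC of -0.36 (SE 0.23). All 3 Ob + RSV libraries were below all 3 Ob libraries. Stard4, whose protein carries sterols between membranes, had 19.3, 25.0 and 24.9 CPM in Ob and 29.8, 22.9 and 37.1 in Ob + RSV, a log2FC of 0.38 (SE 0.24). Its groups overlapped through Ob + RSV replicate 2. Without Ob + RSV replicate 3 the log2FC of Stard4 was 0.18, and without Ob replicate 1 that of Idi1 was 0.25.

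With RSV, edgeR called 0 of the 30 genes and 0% of all genes. The 2 genes at an unadjusted p under 0.05, 1 in each direction, compare with 1.66% of all genes higher and 1.5% lower, and by DESeq2 the unadjusted p was 0.0194 for Hsd17b7 and 0.0486 for Pmvk. The groups did not overlap for 3 genes higher with RSV, Hsd17b7, Idi1 and Sc5d, and for 1 lower, Tm7sf2, against 2.85% and 4.11% of all genes. Sc5d, which encodes a sterol desaturase, had 57.8, 64.9 and 68.5 CPM in Ob and 68.6, 72.4 and 86.6 in Ob + RSV. Differences of more than 2-fold lay outside the 95% interval of 28 genes, all but Hsd17b7 and Apoe.

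In Ob + RSV vs. C, which sets treated mice that had been fed the HFD against mice on chow, no gene passed the test. The 17 enzymes had a median log2FC of 0.023, against -0.0026 over all genes tested. The 5 smallest p-values belonged to Mvd, Idi1 and Cyp46a1, and then to Ebp, a sterol isomerase gene, and Hsd17b7. Mvd had 27.4, 18.5 and 18.6 CPM in Ob + RSV, all above C, a log2FC of 0.41 (SE 0.25). Idi1 had 24.7, 21.3 and 25.2 CPM in C, all below Ob + RSV, a log2FC of 0.38 (SE 0.23). Cyp46a1 had 154, 172 and 176 CPM in C and 152, 138 and 123 in Ob + RSV, with all treated libraries lower and a log2FC of -0.29 (SE 0.20). The values of Ob, 173, 183 and 142 CPM, overlapped both, and without the 3 libraries with few detected genes the log2FC was -0.27. Ebp, at 25.8, 22.7 and 11.8 CPM in Ob + RSV and 16.1 to 16.8 in C, gave a log2FC of 0.27 (SE 0.28), and Hsd17b7 one of 0.28 (SE 0.29). Both overlapped, and Ebp was widely spread with RSV. Without Ob + RSV replicate 1 the log2FC was 0.07 for Ebp and 0.215 for Mvd, and without Ob + RSV replicate 3 it was 0.024 for Hsd17b7.

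Of the 30 genes, 0 were called in Ob + RSV vs. C, as were 0% of all genes, and 0 reached an unadjusted p under 0.05 with edgeR or DESeq2, against 1.47% higher and 1.4% lower of all genes. Mvd and Idi1 were higher and Cyp46a1 lower without overlap, against 2.31% and 3.12% of all genes.

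**Figure D3:**
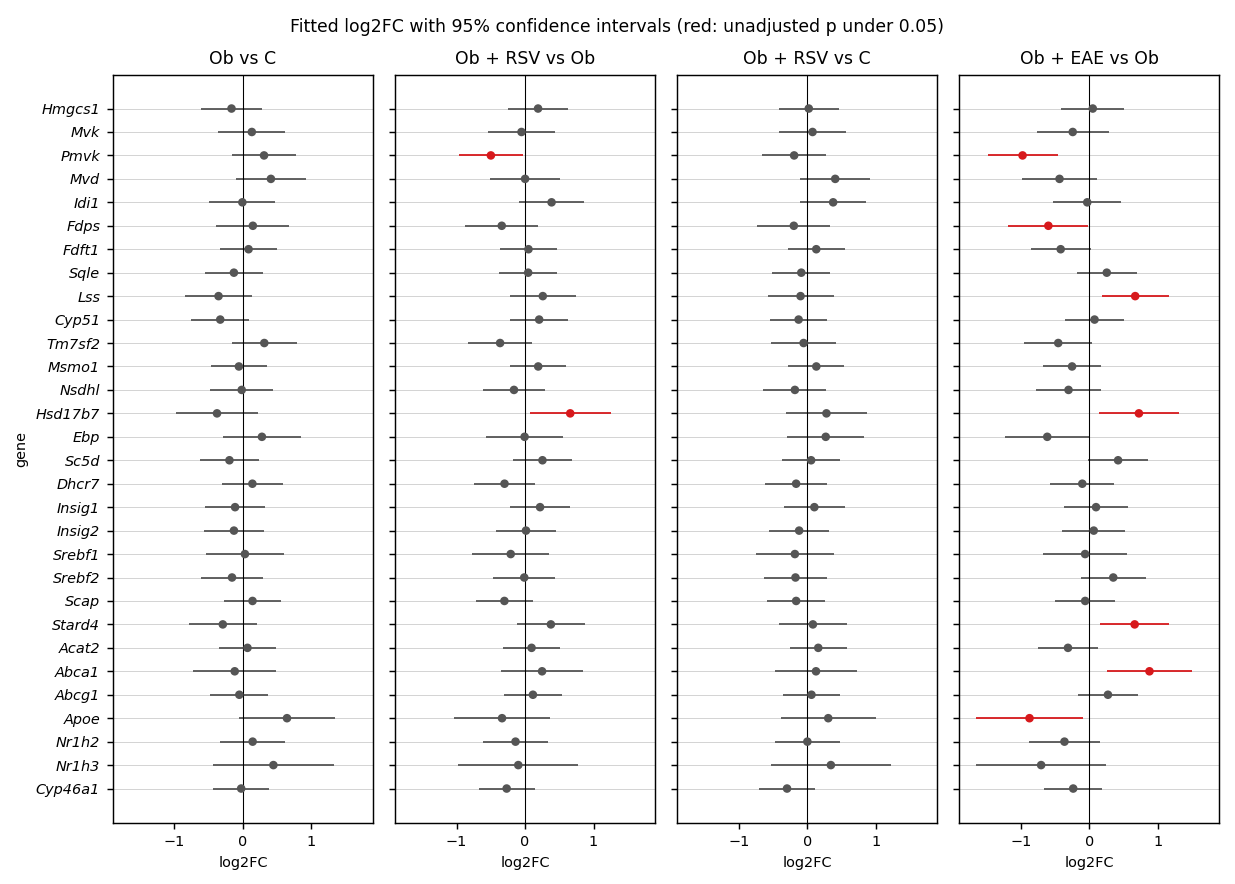
Fitted log2FC (points) with 95% confidence intervals (lines) of the 30 genes in the 4 tested comparisons, with an unadjusted p under 0.05 in red. Among the comparisons of C, Ob and Ob + RSV only Pmvk and Hsd17b7 are red, both for RSV against Ob, whereas 7 genes are red for EAE against Ob.

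Ob + EAE vs. Ob gave more differences than the other 3 comparisons, among the 30 genes and over all genes alike. Of all genes, 4829 of 36164 had an unadjusted p under 0.05 in edgeR here, against 922 to 1059 of 33534 in the others. Pmvk stood lower with EAE and was the only one of the 30 genes with an adjusted p under 0.05 in edgeR, while the efflux transporter Abca1, the cyclase Lss, the sterol carrier Stard4 and the reductase Hsd17b7 stood higher and Apoe and Fdps lower at an unadjusted p under 0.05 alone. The enzymes did not move as a block. Of the 17, 6 had a log2FC above 0 and 11 below, with a median of -0.24 against 0.046 over all genes tested.

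Pmvk had 38.0 and 36.8 CPM with EAE, below all 3 Ob libraries and all 3 C libraries. The log2FC was -0.97 (SE 0.25, adjusted p = 0.0335 from edgeR), just short of the minimum of 1 required for a call. Without Ob replicate 1, the highest library, it was -0.72 with an adjusted p of 0.313 from edgeR. Without Ob replicate 2 or Ob replicate 3 it was -1.05 or -1.03, past that minimum, with an adjusted p of 0.047 or 0.0204 from edgeR. The adjusted p from edgeR was 0.243 without Ob + EAE replicate 1, 0.602 without Ob + EAE replicate 2 and 0.0815 with the filterByExpr filter. By DESeq2 the adjusted p was 0.00859 for Pmvk and 0.049 for Stard4.

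Abca1 had 50.3 and 58.6 CPM with EAE, against 31.8, 28.9 and 28.1 in Ob. Both were above Ob, at a log2FC of 0.88 (SE 0.31, unadjusted p = 0.00749 and adjusted p = 0.134 from edgeR). The other groups spanned a wide range, 46.4, 32.1 and 16.5 CPM in C and 27.9, 25.0 and 52.4 in Ob + RSV. The highest Ob + RSV library lay between the EAE libraries.

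Lss had 48.8 and 54.5 CPM with EAE, higher than any C, Ob or Ob + RSV library. The log2FC against Ob was 0.67 (SE 0.24, unadjusted p = 0.00882 from edgeR). Stard4 had 36.5 CPM in both EAE libraries, above all Ob libraries, at a log2FC of 0.66 (SE 0.24, unadjusted p = 0.0111 from edgeR). Hsd17b7 had 15.1 and 16.4 CPM, above Ob and also above C, with a log2FC of 0.72 (SE 0.29, unadjusted p = 0.0171 from edgeR).

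Apoe, at 2042 and 1707 CPM with EAE, lay inside the range of Ob, 1645 to 5036. Its log2FC of -0.87 (SE 0.38, unadjusted p = 0.0301 from edgeR) became -0.45 without Ob replicate 1. Fdps, which encodes farnesyl diphosphate synthase, had 35.4, 23.0 and 20.2 CPM in Ob and 17.6 and 17.0 with EAE. Both EAE libraries were lower, at a log2FC of -0.60 (SE 0.28, unadjusted p = 0.0446 from edgeR), which became -0.28 without Ob replicate 1.

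Without the 3 libraries with few detected genes, the log2FC with EAE was -0.74 for Pmvk (adjusted p = 0.331 from edgeR), -0.48 for Apoe and -0.30 for Fdps. It was 0.95 for Abca1, 0.53 for Lss, 0.56 for Stard4 and 0.73 for Hsd17b7. Several marker lists also separated EAE from Ob without overlap. The 5 endothelial markers summed to 93.1 to 142 CPM in Ob and 219 and 221 with EAE, the 3 of oligodendrocyte precursors to 99.1 to 117 and 178 to 193, and the 6 of the choroid plexus to 17.2 to 29.8 and 35.3 to 36.3. The 10 markers of oligodendrocytes were lower with EAE, at 5133 to 5492 CPM against 6825 to 7337 in Ob, as were the 11 of the hypothalamus, at 1038 to 1228 against 1410 to 3250. Single markers went against their list without overlap. Ly6c1 of the endothelium had 22.7 and 21.9 CPM with EAE and 24.2 to 40.4 in Ob, and Folr1 of the choroid plexus 0.28 and 0.23 against 0.41 to 1.265. Ugt8a of oligodendrocytes had 50.0 and 51.2 against 28.9 to 34.7, and Sim1 of the hypothalamus 15.4 and 17.5 against 8.47 to 13.2. Kcnj13, Aqp1 and Ttr of the choroid plexus list were each at 0 in at least 1 of the 12 libraries, as was Agrp of the hypothalamus list. The part of these markers in the result was not tested.

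**Figure D4:**
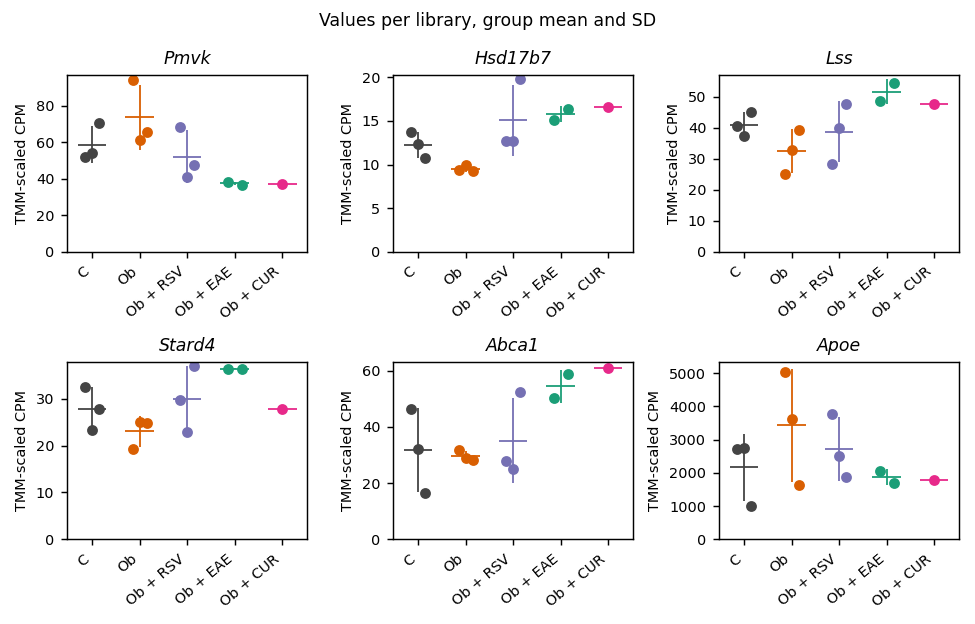
TMM-scaled CPM per library (points) of 6 genes in the 5 groups, with the group mean (horizontal line) and SD (vertical line, groups of 2 or 3). Pmvk is at 36.8 to 38.0 in Ob + EAE and Ob + CUR and at 61.2 to 94.1 in Ob, whereas Hsd17b7 is at 15.1 to 16.6 and at 9.25 to 9.97.

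Under the rule with the minimum on log2FC, 0 of the 30 genes were called, against 1.84% of the 36164 genes tested. At an unadjusted p under 0.05 there were 4 genes higher and 3 lower, against 6.87% and 6.48% of all genes. The groups did not overlap for 9 of the 30 genes higher with EAE (30.0%) and 10 lower (33.3%), against 23.3% and 15.5% of all genes. Beside the genes above, Sqle, Sc5d, Insig1, Srebf2 and Abcg1 were higher without overlap, with log2FC from 0.10 to 0.42, and Mvd, Fdft1, Tm7sf2, Msmo1, Nsdhl, Ebp, Acat2 and Nr1h3 were lower, with log2FC from -0.70 to -0.25. Sqle, the squalene epoxidase gene, had 83.8 and 77.4 CPM with EAE and 63.9 to 71.4 in Ob. Fdft1, which encodes squalene synthase, had 90.8 and 84.7 CPM with EAE and 101 to 138 in Ob.

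The differences with EAE followed exon length, taken as the bases covered by all annotated exons of a gene. Across the 30 genes the correlation between the fitted log2FC (Ob + EAE vs. Ob) and log2 exon length was 0.77. Across 16874 expressed genes the correlation was 0.41, taken with the difference of mean log2 CPM (0.5 added) in place of the fitted log2FC. These are correlations across genes of the same libraries, which are not independent, and they carry no p. Over all genes, the median difference was -0.41 in the fifth with the shortest exon length, up to 1921 bases, and 0.40 in the fifth with the longest, over 7190 bases. Pmvk has the shortest exon length of the 30 genes, 1713 bases, and Apoe has 2138, whereas Abca1 has 10363 and Lss 10787. For single libraries, the deviation of each of the 30 genes from its mean log2 CPM over the 12 libraries was set against log2 length. That correlation was 0.77 and 0.79 with EAE and 0.70 with CUR, against -0.53, -0.44 and -0.30 in Ob. It was 0.51, -0.02 and -0.19 in C and -0.74, -0.35 and 0.35 in Ob + RSV, so positive values were not particular to EAE and CUR.

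With the trend of each library on length and GC content removed, the log2FC of Pmvk with EAE was -0.63 (adjusted p = 0.156 from edgeR), and no gene of the 30 had an adjusted p under 0.05. Abca1 then had 0.40, Lss 0.22 and Apoe -0.52, none at an unadjusted p under 0.05. Stard4 kept 0.46, Hsd17b7 0.55 and Fdps -0.66, all at an unadjusted p under 0.05, as were Fdft1 with -0.44, Tm7sf2 with -0.52 and Msmo1, a methylsterol oxidase gene, with -0.52. The median of the 17 enzymes became -0.10. This correction was added after the values had been seen. The correlation with log2 length over the 30 genes was then 0.50.

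**Figure D5:**
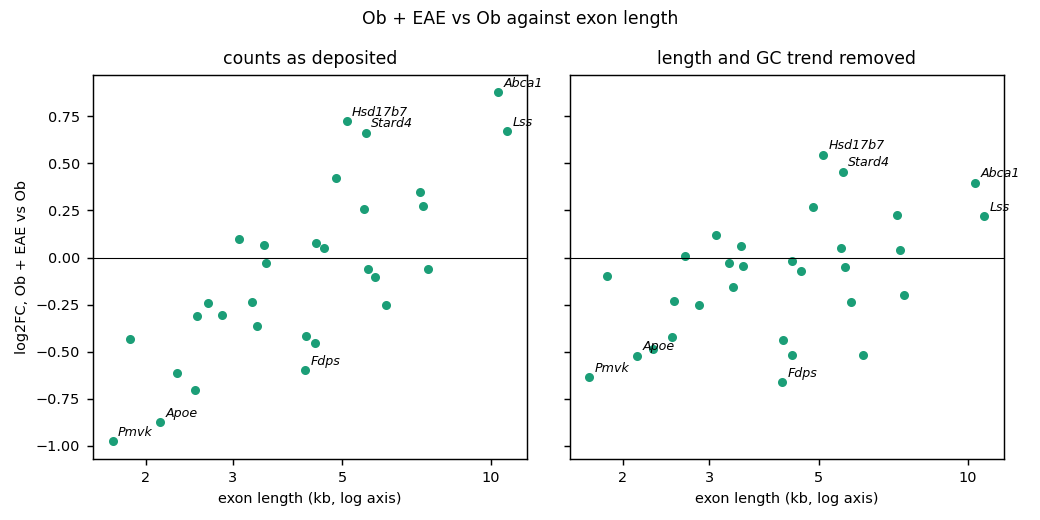
Fitted log2FC of the 30 genes in Ob + EAE vs. Ob (vertical axis) against exon length in kb (log axis), from the counts as deposited (left) and with each library's trend on length and GC content removed (right). At left the points run from Pmvk at -0.97 to Abca1 at 0.88, and at right from Fdps at -0.66 to Hsd17b7 at 0.55.

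In the other comparisons the same measures also moved with the 30 genes. The correlation over the 30 genes was -0.63 with log2 length and 0.65 with GC content for Ob vs. C, and 0.35 and -0.71 for Ob + RSV vs. Ob. Over the 16874 expressed genes, taken with the difference of mean log2 CPM, the signs were the same. The values were -0.29 and 0.25 for Ob vs. C, and 0.19 and -0.30 for Ob + RSV vs. Ob. With these trends removed, Hsd17b7 kept a log2FC of 0.56 in Ob + RSV vs. Ob (unadjusted p = 0.0323 from edgeR) and Pmvk had -0.28. Mvd had 0.18 for Ob vs. C and 0.42 for Ob + RSV vs. C, the latter at an unadjusted p of 0.0498 from edgeR. For Ob vs. C, Apoe then had 0.36, Cyp51 -0.27, Lss -0.17 and Pmvk 0.10. No adjusted p of the 30 genes was under 1 in these 3 comparisons.

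Ob + CUR had a single library, so its values have no replicate check and no test. Abca1 was the only gene of the 30 more than 2-fold from the mean of Ob and outside its range, with 60.9 CPM against a mean of 29.6, a log2 ratio of 1.04. Over all genes 18.9% were past that limit. Pmvk, at 37.1 CPM against 73.6, had a log2 ratio of -0.99, and Apoe, at 1790 against 3433, one of -0.94 but within the Ob range. Hsd17b7, at 16.6 against 9.54 CPM, had a log2 ratio of 0.80. Altogether 11 of the 30 genes were above and 9 below all 3 Ob libraries, against 32% and 19.6% of all genes. Cyp46a1 had its lowest level of all 12 libraries here, 116 CPM. In this library the 7 general neuronal markers summed to 3588 CPM, within the 3482 to 4330 of the others. The 11 hypothalamic markers summed to 322, below the others, although Nkx2-1 and Sim1 of that list were at their highest of all 12 libraries. The part of these markers was not tested.

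The remaining genes are given by their lowest and highest libraries. Hmgcs1 ranged from 140.3 to 243 CPM, both in Ob + RSV. Mvk, the mevalonate kinase gene, ranged from 23.8 CPM in Ob replicate 3 to 41.1 in Ob + RSV replicate 1, and Dhcr7, a reductase gene of the final steps, from 30.7 to 51.9. The lowest and the highest Hmgcs1 values thus came from 1 group. Msmo1 ranged from 70.3 to 104 CPM, Nsdhl, a sterol dehydrogenase gene, from 22.2 to 33.0, and Acat2 from 44.5 to 63.5. All 3 had their lowest library in Ob + EAE replicate 2. Nr1h2 ranged from 49.9 to 89.1 CPM and Nr1h3 from 3.16 to 8.35 in Ob replicate 2.

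Of 39 other genes of sterol and fatty acid metabolism, listed from general knowledge, 0 reached that level of unadjusted p in any comparison of C, Ob and Ob + RSV. In Ob + EAE vs. Ob, 9 were higher and 2 lower at an unadjusted p under 0.05, against 6.87% and 6.48% of all genes, and 0 were called with the minimum on log2FC, against 1.84%. Lrp1, a receptor that takes up lipoproteins carrying Apoe, had the smallest p, with a log2FC of 0.90 (SE 0.23, adjusted p = 0.0312 from edgeR). Npc1 and Npc2, which move cholesterol out of lysosomes, had 0.82 (SE 0.24) and -0.65 (SE 0.23), in opposite directions. With the length and GC trend removed these values were 0.49, 0.33 and -0.81, and none had an adjusted p under 0.05 in edgeR.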

How the data were processed

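Poly(A) RNA of 12 hypothalamus samples was sequenced in pairs with a stranded kit. Alignment was with HISAT2, and the authors deposited raw counts per gene from featureCounts. Per the labels the build is GRCm39. Which annotation release and strand setting were used, and how multiply aligned reads were counted, is not given in the sources used here. Genes that share reads with copies or overlapping genes are therefore uncertain. Per library, 15655156 to 26284661 reads were counted. Groups follow the labels.

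Genes with 10 or more reads over the fitted libraries were tested with edgeR 4.0.16 (quasi-likelihood, TMM) in R 4.3.3, in a fit of the 9 C, Ob and Ob + RSV libraries (6 residual degrees of freedom) and, for Ob + EAE, of all 12 (7). Calls required a Benjamini-Hochberg adjusted p under 0.05 over all genes tested and a log2FC of at least 1. SEs were taken as the log2FC over the root of its F statistic. The test was checked on simulated data. Statistics are given for genes at an unadjusted p under 0.05 or, where fewer than 5 were, for the 5 smallest p; of the other pathway genes, at most 4 are named, and 1 result that this rule selects is not reported here. The genes and lists were chosen with earlier results of these data known. Alternatives were other scalings, filters and fits, DESeq2 1.42.0, a replicate block and leaving out libraries. The removal of each library's trend on exon length and GC content (spline, GENCODE vM21 by gene ID) was added after seeing the data. The 1 position printed, a promoter window, is on GRCm38.p6, and positions on the build of the counts are not given.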

Additional observations from a re-analysis of the deposited data

How the results depend on the processing

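Of the 26 log2FC values of genes named by the rule, 0 changed direction under the alternatives run for them. Srebf1 and Srebf2 lie outside that rule and were refitted with the length and GC trend removed alone, where Srebf1 in Ob vs. C went from 0.03 to -0.06. In Ob vs. C, 1 gene instead of 0, Apoe, had an unadjusted p under 0.05 with no filter beyond 1 read and with the replicate block. When each library was left out, 0 to 1 gene did, again Apoe, while the median log2FC of the synthesis enzymes ran from -0.045 to 0.046. In Ob + RSV vs. Ob, 1 gene instead of 2 was at that level with filterByExpr, without the 3 libraries with few detected genes and with the length and GC trend removed, and 0 to 3 on leaving out each library. The enzyme median was 0.19 without those 3 libraries and ran from -0.053 to 0.11 on leaving out each. In Ob + RSV vs. C, 1 gene instead of 0 was at that level with the block and with the trend removed, and the enzyme median was 0.15 without the 3 libraries. In Ob + EAE vs. Ob, 1 gene instead of 0 was called with the block, Apoe at -1.13, and 1 with no minimum on log2FC, Pmvk, and 0 to 1 on leaving out each library, where a lone Ob + EAE library is assumed to vary like the other groups. Genes at an unadjusted p under 0.05 numbered 11 with the block, 4 without the 3 libraries and 3 to 9 on leaving out each, instead of 7. The enzyme median was -0.16 without the 3 libraries, -0.10 with the trend removed and -0.27 to -0.068 on leaving out each, instead of -0.24. For Ob + CUR, 1 to 3 genes were past a log2 ratio of 1 on leaving out each Ob library. The cause of these moves was not tested. Replicate numbers do not pair the samples as far as the labels say. Over 21557 genes, libraries of different groups with the same number had correlations from -0.03 to 0.33. Those with different numbers ran from -0.31 to 0.15. Every C, Ob and Ob + RSV library except C replicate 1 and Ob replicate 2 correlated best with a library of its own number. The main fit has no term for the number, and what same-numbered libraries share was not tested. With 2 or 3 libraries per group, 95% intervals of log2FC spanned 0.82 to 1.89 units, which limits the differences that could be detected.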
